A study of Mus musculus with 6 samples.

Results

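The 4 stress keratin genes Krt6a, Krt6b, Krt16 and Krt17 were followed in mouse epidermis after wounding. They were chosen by name, 4 of the 54 keratin genes and of the 47455 gene symbols in the deposited tables, with earlier results of these data known. The wounded group came from 3 mice of the C57BL/6 strain, 6 to 8 weeks old, whose back skin was given 8 punch wounds of 3 mm and whose whole epidermis was taken 2 h later. No genetic change is labelled in either group. The non-wounded group was whole epidermis from non-wounded tissue of the same 3 mice, for which no separate collection time was taken from the labels. Each mouse thus gave 1 wounded and 1 non-wounded library, 6 libraries in all. The comparison asks which transcripts change in the epidermis soon after damage.

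Keratins are the intermediate filament proteins of epithelial cells and assemble from a type I and a type II partner. Krt5 and Krt14 form the filaments of basal keratinocytes and Krt1 and Krt10 those of the differentiating layers. Krt6a and Krt6b (type II) and Krt16 and Krt17 (type I) are among the keratins of hair follicles, nails and other appendages. In the skin between follicles they are known as markers of activated keratinocytes at wound edges and in psoriasis.

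All 4 genes lie on the minus strand in the GENCODE M21 annotation of GRCm38 (mm10). The type II genes Krt6b (ENSMUSG00000023041.7, chr15:101676023-101680287) and Krt6a (ENSMUSG00000058354.7, chr15:101689910-101694307) are neighbours on chromosome 15, with 9 exons each. The type I genes Krt16 (ENSMUSG00000053797.10, chr11:100246091-100248902) and Krt17 (ENSMUSG00000035557.9, chr11:100256217-100261029) are neighbours on chromosome 11, with 8 exons each. Over 1659 aligned bases the coding sequences of Krt6a and Krt6b were 97.8% identical, with 37 differing bases. Krt16 and Krt17 were 77.6% identical, and Krt16 was 86.4% identical to Krt14.

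The 90 coding bases in 1 exon at which Krt6a and Krt6b differ most are shown because reads over such stretches are what separates these paralogs. Both windows lie in exon 4 and are read 5′ to 3′ on the minus strand, from chr15:101692484-101692573 for Krt6a and chr15:101678303-101678392 for Krt6b, with the 12 differing bases in capitals.
Krt6a: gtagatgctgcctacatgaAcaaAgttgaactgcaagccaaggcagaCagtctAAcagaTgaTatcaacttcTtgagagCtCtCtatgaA
Krt6b: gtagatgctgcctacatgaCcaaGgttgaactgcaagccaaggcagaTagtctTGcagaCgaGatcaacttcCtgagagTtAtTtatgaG
The same kind of window for the type I pair lies in exon 5, at chr11:100247136-100247225 for Krt16 and chr11:100257777-100257866 for Krt17. It held 30 differing bases, in capitals.
Krt16: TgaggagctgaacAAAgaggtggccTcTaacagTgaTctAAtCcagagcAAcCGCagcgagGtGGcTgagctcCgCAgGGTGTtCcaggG
Krt17: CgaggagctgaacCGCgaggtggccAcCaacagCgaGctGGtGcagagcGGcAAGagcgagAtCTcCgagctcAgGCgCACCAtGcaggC

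These differences bear on how far the counts can be trusted. Of the 2205 distinct 31-base words in the Krt6b transcript, 1109 also occurred in Krt6a transcripts and 949 occurred in no other gene. Krt6a had 1010 words of its own out of 2248, and Krt17 had 1280 of 1521. Krt16 had 739 of 1535, and shared 796 with other genes. Of these, 494 occurred in the predicted gene Gm11597, which had an estimated count of at most 4.03 in any library, and some occurred in the abundant Krt14 and Krt17 and in Krt13 and Krt42. Salmon divides the reads that fit several transcripts, so Krt6b, which had far fewer counts than Krt6a, is reported as uncertain. The antisense genes Gm44342 over Krt6a and Gm44383 over Krt6b had a count of 0 in every library, which allows up to 3 counts per library. A further antisense gene over Krt6a, Gm49428, was not analysed here. No promoter sequences of Krt6a, Krt6b, Krt16 or Krt17 were used here.

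The libraries held between 20746185 and 26814845 counts. Levels of 1 gene between libraries are given in CPM, its counts scaled to the library total times the library's TMM factor. Levels between genes are given in the authors' TPM, which take transcript length into account. A log2 fold change sets wounded over non-wounded epidermis and is given with its standard error (SE). Unless limma is named, the adjusted p comes from the quasi-likelihood test of edgeR. Ranges of adjusted p over the alternatives also take in DESeq2 and limma. Benjamini-Hochberg adjustment was across the genes kept, which were 16079 in the main fit and differed with another filter or a library left out. With the TMM factors 48.4% of the 16079 genes were called at an adjusted p under 0.05, 24.0% as higher and 24.4% as lower in wounded epidermis. Wounded and non-wounded CPM did not overlap in 58.5% of the genes, and in 28.8% every wounded library lay above every non-wounded one. Higher genes made up 49.6% of the calls with TMM, but 37.1% with upper-quartile factors and 24.6% with library totals alone. Library totals alone moved the log2 fold change of the median gene by -0.32 and log2(TPM + 1) by -0.30, so each value below is relative to TMM unless another scale is named.

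Of the 4 genes, 2 rose strongly at 2 h, Krt16 by 15.5-fold and Krt6a by 4.28-fold. Krt17, already abundant, was 1.36-fold higher, a call that held only with some scalings. Krt6b was scarce, at 1.02 to 4.23 TPM in wounded and 1.51 to 3.03 TPM in non-wounded libraries, and its groups overlapped. At this time Krt16 and Krt6a thus rose as the name of wound-induced keratins says, while Krt6b did not pass the test. The genes were chosen with earlier results of these data known, so this describes them and does not test the name. With 3 of the 4 called as higher against 24.0% of all genes, the count itself rests on very few genes.

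Krt16, a type I keratin that pairs with Krt6 proteins, stood at 2044, 2075 and 2367 CPM in the wounded libraries of mice 1, 2 and 3, against 66.8, 155 and 196 CPM in their non-wounded libraries. Every wounded library lay far above every non-wounded one. The rise was log2 3.95 (SE 0.33, adjusted p = 9.82e-06 by edgeR). Within the mice it was 30.6-fold in mouse 1, 13.4-fold in mouse 2 and 12.1-fold in mouse 3. The wounded values varied little, with a coefficient of variation of 8.23%, while the non-wounded values varied by 47.5% and were lowest in mouse 1. Leaving out mouse 1's non-wounded library gave a log2 fold change of 3.61, and leaving out mouse 3's gave 4.28. Krt16 had the largest log2 fold change of the 2094 genes that averaged 100 CPM or more, and ranked 57 among all genes tested.

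Krt6a, the main type II partner in activated keratinocytes, stood at 1337, 1389 and 1473 CPM in wounded epidermis of mice 1, 2 and 3, against 313, 368 and 300.4 CPM in non-wounded epidermis. The groups did not overlap, and the mice were closely alike, with rises of 4.27-, 3.78- and 4.90-fold. The rise was log2 2.10 (SE 0.11, adjusted p = 1.03e-06 by edgeR), which ranked 36 among those 2094 abundant genes and 328 among all genes tested. Krt6a and Krt6b summed rose by log2 2.09 (SE 0.11, adjusted p = 1.02e-06 by edgeR), close to Krt6a alone.

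Krt17, a type I keratin of hair follicles that also appears in activated keratinocytes, was the most abundant of the 4 genes in non-wounded epidermis. It stood at 2370, 2208 and 2103 CPM in wounded libraries of mice 1, 2 and 3, against 1593, 1788 and 1515 CPM in non-wounded ones. These CPM did not overlap, with ratios of 1.49, 1.24 and 1.39 within the mice. The TMM-scaled difference was log2 0.45 (SE 0.10, adjusted p = 0.00472 by edgeR). With library totals alone it was log2 0.12 (adjusted p = 0.329 by edgeR), and on log2(TPM + 1) it was 0.10 (adjusted p = 0.329 by limma), so neither passed. In TPM the groups overlapped, at 1776, 1635 and 1638 TPM in wounded libraries against 1552, 1683 and 1466 TPM in non-wounded ones, and mouse 2 was slightly lower after wounding. Krt17 RNA therefore changed by little on any scale, and whether it rose depends on the scaling.

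Krt6b, the close paralog of Krt6a, had estimated counts of 43.7, 54.4 and 151 in the wounded libraries of mice 1, 2 and 3, against 61.4, 116 and 114 in the non-wounded ones. These correspond to 2.06, 2.27 and 8.14 CPM against 2.31, 4.42 and 4.69 CPM. The wounded libraries of mice 1 and 2 were the lowest of the 6 and that of mouse 3 the highest, so that the groups overlapped fully. The difference of log2 0.11 (SE 0.50) did not pass (adjusted p = 0.869 by edgeR). Without the wounded library of mouse 3 it was -0.81 (adjusted p = 0.0986 by edgeR, range 0.0986 to 0.955 over all alternatives). Krt6b took 0.153%, 0.164% and 0.551% of the estimated counts of the Krt6a and Krt6b pair in wounded libraries, against 0.739%, 1.19% and 1.54% in non-wounded ones.

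**Figure D1:**
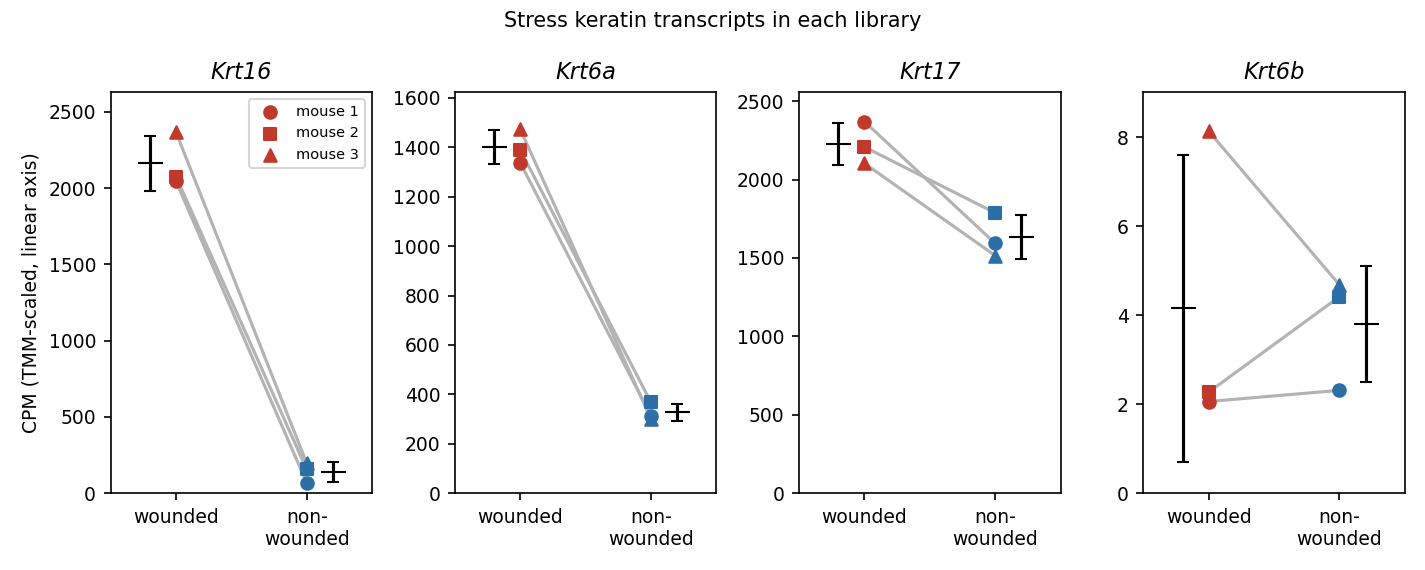
TMM-scaled CPM (linear axes, each from 0) of Krt16, Krt6a, Krt17 and Krt6b in the wounded and non-wounded libraries, with 1 symbol per mouse, grey lines joining the libraries of a mouse, and black bars for the mean ± SD of 3 libraries. Krt16 and Krt6a were higher in every wounded library, Krt17 was slightly higher in each, and Krt6b was higher only in mouse 3, at 8.14 against 4.69 CPM.

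**Figure D2:**
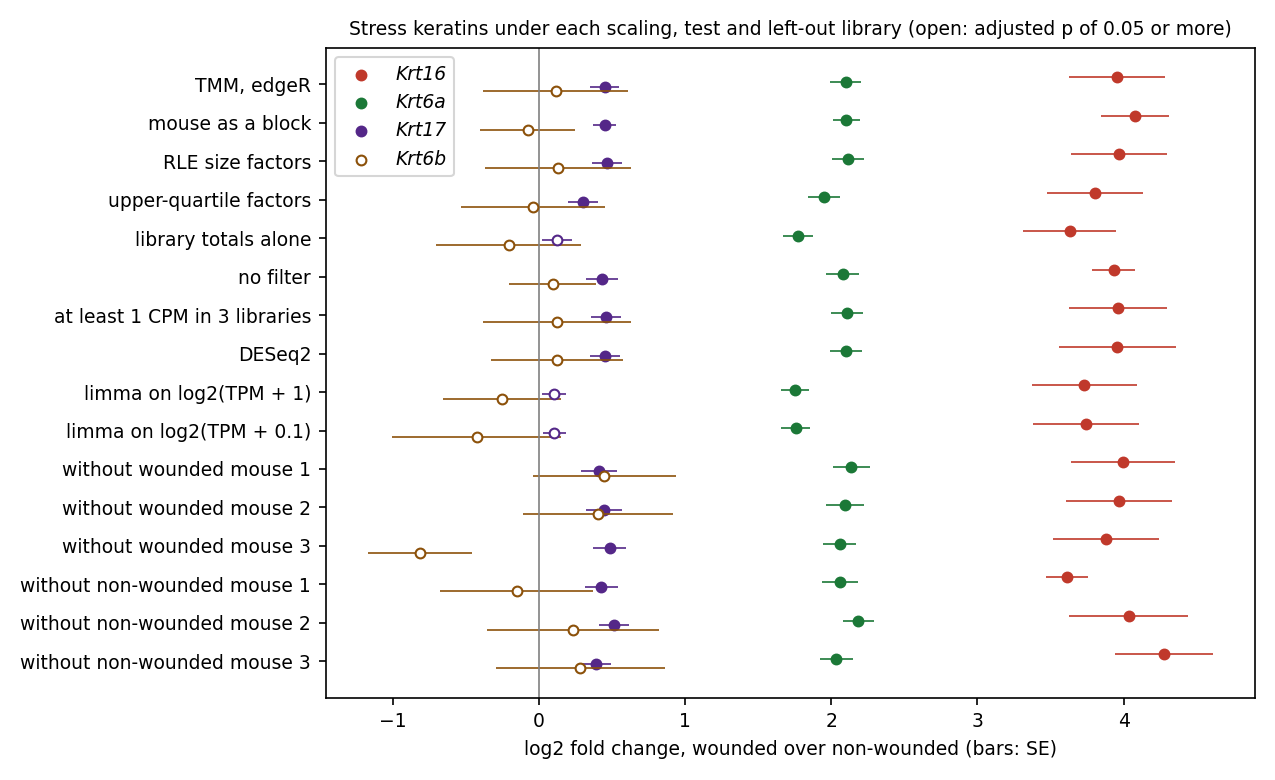
Log2 fold changes of the 4 genes (horizontal axis, bars show the SE) under each scaling, test and left-out library, with open symbols where the adjusted p was 0.05 or more. Krt16 (3.61 to 4.28) and Krt6a (1.75 to 2.18) stayed apart from 0 under all of them, Krt17 lay between 0.10 and 0.51, and Krt6b between -0.81 and 0.45.

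Set side by side per length, the 4 genes were far apart. In wounded epidermis the order in TPM was Krt17 at 1683 ± 80.8, Krt16 at 1620 ± 177, Krt6a at 696 ± 50.7 and Krt6b at 2.13 ± 1.82 (SD, n = 3). In non-wounded epidermis it was Krt17 at 1567 ± 109, Krt6a at 206 ± 18.9, Krt16 at 132 ± 62.7 and Krt6b at 2.44 ± 0.812. Krt17 and Krt16 did not differ beyond their spread in wounded epidermis. In non-wounded epidermis Krt6a and Krt16 were close, with 191 TPM in the lowest Krt6a library against 188 TPM in the highest Krt16 library. Krt16 made up 38.4% to 43.2% of the TPM of the 4 genes in wounded libraries, against 3.54% to 10.2% in non-wounded ones. Krt17 made up 38.8% to 44.9%, against 79.3% to 85.4%.

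The ratio of Krt16 to Krt17 TPM was 0.853, 0.930 and 1.11 in the wounded libraries of mice 1, 2 and 3, against 0.0415, 0.0861 and 0.128 in the non-wounded ones. On the log2 scale it was higher by 3.64 in wounded libraries (exact permutation test, two-sided p = 0.1, the smallest that 3 against 3 libraries allow). The type I pair exceeded the type II pair throughout, by 4.99, 4.66 and 4.57 times in the wounded libraries of mice 1, 2 and 3, against 8.01, 7.94 and 8.53 times in the non-wounded ones. This excess was lower in wounded epidermis, by a log2 difference of -0.78, with no overlap of the groups (exact permutation test, two-sided p = 0.1). The ratio of Krt6a to Krt6b was higher by log2 2.22 (exact permutation test, two-sided p = 0.1), with the reservation on Krt6b counts, and by 2.82 once mouse 3's wounded library was left out. The 4 genes made up 14.7%, 15.6% and 17.2% of all keratin TPM in wounded libraries, against 5.09%, 7.24% and 6.19% in non-wounded ones (exact permutation test, two-sided p = 0.1). Benjamini-Hochberg adjustment over these 4 measures left each p at 0.1, which cannot pass 0.05 in this design. These permutations leave out the pairing of libraries by mouse. Within mice, an exact sign-flip test gave p = 0.25 for each measure, the smallest that 3 mice allow.

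**Figure D3:**
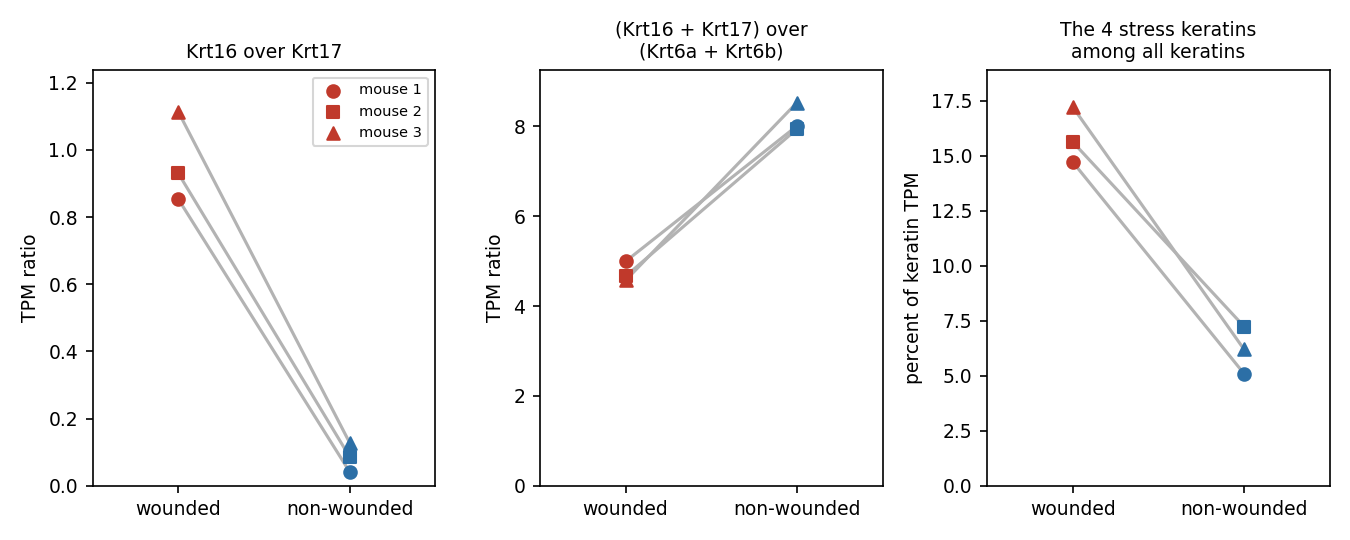
The ratio of Krt16 to Krt17 TPM, the ratio of Krt16 plus Krt17 to Krt6a plus Krt6b TPM, and the percentage of all keratin TPM held by the 4 genes, for wounded and non-wounded libraries with 1 symbol per mouse and all axes from 0. The Krt16 to Krt17 ratio was near 1 in wounded libraries (0.853 to 1.11), and the type I to type II ratio was 4.57 to 4.99 in wounded against 7.94 to 8.53 in non-wounded libraries.

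The other abundant keratins moved less than Krt16 and Krt6a, with log2 fold changes between -0.98 (Krt15) and 0.53 (Krt14) for the 11 that averaged 10 CPM or more. Krt15 and Krt14 moved more than Krt17 (0.45). Of the 54 keratin genes, 28 of type I and 26 of type II, 27 had enough counts to test. Of the 23 tested besides the stress keratins, 8 were higher, 2 lower and 13 not called. Over all genes 24.0% were higher and 24.4% lower. The median log2 fold change of the 23 was 0.08, against -0.03 over all genes. On library totals 4 were higher and 8 lower. On the TPM scale, which lowered the median gene as given above, all keratins together summed to 24518 to 26857 TPM in wounded libraries, against 28443 to 35734 TPM in non-wounded ones. The other keratins alone summed to 20298 to 22906 TPM, against 26385 to 33915 TPM. In TMM-scaled CPM the structural keratins overlapped, at sums of 33261 to 39666 CPM in wounded against 35707 to 45334 CPM in non-wounded libraries. By mean TPM among all keratins Krt16 ranked 7 in wounded and 12 in non-wounded epidermis, Krt6a ranked 8 and 11, and Krt17 ranked 6 in both.

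Among the structural keratins of the epidermis, 3 of 11 were higher and 1 lower, against 24.0% and 24.4% of all genes. Krt14, the basal type I keratin, was higher at 4434 ± 106 CPM in wounded against 3065 ± 156 CPM in non-wounded epidermis (log2 0.53, SE 0.09), and was log2 0.21 higher with library totals alone, without a call. Krt15, a type I keratin of basal and bulge cells, fell to 1950 ± 274 CPM in wounded epidermis, against 3857 ± 460 CPM in non-wounded epidermis (log2 -0.98, SE 0.13). Krt24 rose by log2 1.25 (SE 0.30) at a low level, and Krt23 was higher by log2 0.32 (SE 0.11) with TMM but not with library totals alone. The partners of the basal and suprabasal filaments, Krt5 (log2 -0.05, SE 0.13) and Krt10 (log2 -0.12, SE 0.13), did not pass with TMM but did so as lower on library totals (log2 -0.38 and -0.44). Krt1 (log2 -0.50, SE 0.21, adjusted p = 0.0758 by edgeR) became a lower call once mouse was a block (adjusted p = 0.000315 by edgeR, range 0.000164 to 0.294 over all alternatives). With library totals alone 1 of the 11 was higher and 6 were lower.

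**Figure D4:**
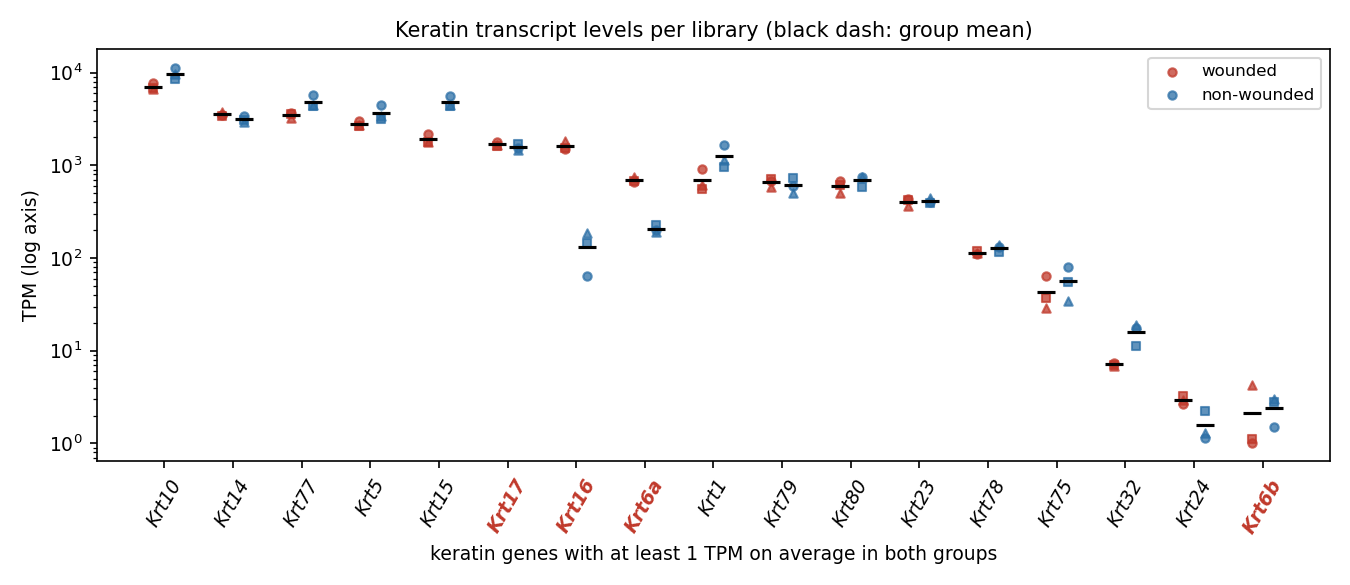
TPM (log axis) in each library of the keratin genes with a mean of at least 1 TPM in both groups, ordered by their wounded mean, with wounded libraries left of non-wounded ones, 1 symbol shape per mouse and black dashes for means. Krt16 (1620 against 132 TPM) and Krt6a (696 against 206 TPM) are the abundant keratins whose wounded libraries stand well above the non-wounded ones, while Krt15 stands below. On this scale every wounded library of Krt10, Krt77, Krt5 and Krt1 also lay below every non-wounded one, by less than for Krt15.

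Keratins and markers of the hair follicle, where the 4 genes are also expressed without injury, did not move as 1 group. Of 23 follicle keratins 5 could be tested, and 2 were higher and 1 lower, against 24.0% and 24.4% of all genes. Krt75, a type II keratin of the follicle's companion layer, stood at 63.5, 36.7 and 28.7 TPM in the wounded libraries of mice 1, 2 and 3, against 81.0, 55.5 and 34.3 TPM in the non-wounded ones (log2 -0.05, SE 0.32 in CPM, not called). Krt79, found in the duct of the follicle, was higher by log2 0.44 (SE 0.15), with log2 0.11 and no call with library totals alone. Krt32, a cuticle keratin, fell (log2 -0.81, SE 0.22), and Krt27, of the inner root sheath, rose by log2 2.60 (SE 0.43) on 142 counts in wounded against 28 in non-wounded libraries. On library totals, 1 of the 5 was higher and 1 lower. Of 8 follicle markers 7 were tested, 3 were higher (Sox9, Nfatc1 and Cd34) and 1 lower (Lhx2). Shh had too few counts to test, at 0 in every library except the wounded one of mouse 3 (0.108 CPM). The summed level of the follicle markers was 524 to 577 CPM in wounded against 243 to 286 CPM in non-wounded libraries. Much of it was Sox9 (mean 274 against 71.5 CPM) and Nfatc1 (mean 144 against 67.5 CPM), while Lgr5, Lgr6 and Tbx1 were not called. The part of these markers in the keratin values was not tested. In whole tissue, more or fewer cells of a type and more or less RNA per cell cannot be told apart.

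The genes lie in keratin clusters whose other genes were also read. On chromosome 15, Krt5 beside Krt6a and Krt75 beyond Krt6b were not called, while the sparse predicted gene Gm5414, which shares sequence with the Krt6 genes and is uncertain, was higher (53 counts in wounded, 14 in non-wounded epidermis, adjusted p = 0.0349 by edgeR). On chromosome 11, Krt16 (log2 3.95) lay between Krt14 (log2 0.53) and Krt17 (log2 0.45), and Krt42 beyond Krt17 was not called (63 counts in wounded, 42 in non-wounded epidermis, adjusted p = 0.191 by edgeR). Beyond Krt42, the translation initiation factor gene Eif1 was higher by log2 0.74 (SE 0.09), more than Krt17.

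Of 24 genes for ligands and receptors known to act on stress keratin genes 19 were tested, 11 were higher, 1 lower and 7 not called. The 19 had a median log2 fold change of 0.40 against -0.03 over all genes. Of all genes 24.0% were higher and 24.4% lower. On library totals 7 of the 19 were higher and 3 lower. The cytokine genes Il1b and Il6 rose by log2 2.78 (SE 0.17) and 5.67 (SE 0.40). Il1b stood at 59.3 ± 3.22 CPM in wounded epidermis, against 8.64 ± 2.36 CPM in non-wounded epidermis. Of the receptors, Osmr rose most, by log2 2.20 (SE 0.17). Il17ra, which receives IL-17, rose to 67.8 ± 6.38 CPM in wounded epidermis, against 21.4 ± 1.16 CPM in non-wounded epidermis (log2 1.67, SE 0.11). Egfr was higher by log2 0.58 (SE 0.12), without a call with library totals alone. The EGF receptor ligand genes Tgfa and Hbegf rose by log2 1.77 (SE 0.14) and 1.12 (SE 0.14). Areg was higher with TMM (log2 0.47, SE 0.16) but not on library totals. Ereg (log2 0.10, SE 0.21) and Btc (log2 -0.32, SE 0.16) were not called, though Btc was lower on library totals (log2 -0.64). The cytokine genes Il1a (log2 0.10, SE 0.15) and Tnf (log2 -0.03, SE 0.29) were not called either. The 1 lower gene was Ifngr1 (log2 -0.65, SE 0.17). Il22, Il17a, Il20, Ifng and Osm had too few counts to test.

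Of 20 transcription factor genes linked to stress keratin promoters or to their repression, 11 were higher, 3 lower and 6 not called. The 20 had a median log2 fold change of 0.33, and of all genes 24.0% were higher and 24.4% lower. On library totals 8 of the 20 were higher and 4 lower. Cebpb, which encodes C/EBP beta, rose to 178 ± 16.6 CPM in wounded epidermis, against 53.5 ± 3.33 CPM in non-wounded epidermis (log2 1.74, SE 0.10). Stat3, the transducer of IL-6 family signals, rose by log2 1.69 (SE 0.12), and the AP-1 genes Fosl1, Fosb and Fos by log2 1.80 (SE 0.20), 1.27 (SE 0.15) and 1.19 (SE 0.21). Of the other AP-1 genes, Junb and Jund were higher with TMM (log2 0.33, SE 0.11, and log2 0.32, SE 0.11) but not on library totals. Jun (log2 0.28, SE 0.11) was not called, nor was Fosl2 (log2 -0.13, SE 0.08), which was lower on library totals (log2 -0.46). Nfe2l2, which encodes NRF2, was higher by log2 0.45 (SE 0.10), without a call with library totals alone. The 3 lower genes were Trp63 (log2 -0.47, SE 0.12), which encodes the epidermal master regulator p63, the glucocorticoid receptor gene Nr3c1 (log2 -0.38, SE 0.10) and the retinoic acid receptor gene Rarg (log2 -0.84, SE 0.14). The glucocorticoid and retinoic acid receptors are known as repressors of human stress keratin promoters. Gli1 and Gli2, mediators of hedgehog signals linked to Krt17, were not called (log2 0.11, SE 0.23, and log2 -0.25, SE 0.24).

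Of 15 tested genes for proteins that hold keratin filaments or bind them, 8 were higher, 2 lower and 5 not called, and with library totals alone 3 were higher and 3 lower. Sfn, which encodes 14-3-3 sigma, a cytoplasmic partner of keratin 17, rose to 4364 ± 241 CPM in wounded epidermis, against 1410 ± 100.3 CPM in non-wounded epidermis (log2 1.63, SE 0.10). Csnk1a1, a keratin-associated kinase gene, rose by log2 0.74 (SE 0.09). The desmosomal plakin gene Dsp was higher by log2 0.37 (SE 0.11) with TMM but not with library totals alone, whereas Dst, whose epithelial form ties keratins to hemidesmosomes, fell to 591 ± 46.2 CPM in wounded epidermis, against 2101 ± 711 CPM in non-wounded epidermis (log2 -1.83, SE 0.20).

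Of 20 other genes of activated keratinocytes 15 were tested, 13 were higher and 2 not called. The 15 had a median log2 fold change of 2.30, against -0.03 over all genes, of which 24.0% were higher. At least 12 were higher with any 1 library left out. Sprr1a and Sprr1b, cornified envelope precursors, rose by log2 2.75 (SE 0.19) and 4.95 (SE 0.41), with Sprr1a at 2745 ± 365 CPM in wounded against 408 ± 104 CPM in non-wounded epidermis. The antiprotease gene Slpi rose by log2 4.11 (SE 0.29). Vnn3 (log2 -0.02, SE 0.62) and the envelope gene Ivl (log2 -0.03, SE 0.11) were the 2 tested genes not called. On library totals 13 were higher and Ivl was lower (log2 -0.35).

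The genes whose profile over the 6 libraries was most like each stress keratin were found by the root mean square difference of their centred log2 CPM, among 8354 genes averaging 10 CPM or more. This measure uses the wounding difference, so the likeness includes the size of the change. It also uses the differences between mice, so a library pattern shared with a stress keratin follows from the choice. For Krt16 they were Ifi202b (difference 0.27), an interferon-inducible gene of a multigene family whose reads may be shared, the heparan sulfate sulfotransferase gene Hs3st1 (0.29) and the hyaluronan synthase gene Has1 (0.33). Like Krt16, all of them were lowest in the non-wounded library of mouse 1, where Ifi202b stood at 73.1 CPM, against 137 and 210 CPM in mice 2 and 3. For Krt6a they were Urb2, a ribosome biogenesis gene (0.08), Ralgds, which encodes an activator of Ral GTPases (0.09), and the Wnt receptor gene Fzd5 (0.10). For Krt17 they were Zfp513 (0.03), the Elongator subunit gene Elp5 (0.04) and the sterol desaturase gene Sc5d (0.04). For Krt6b the closest genes were less alike, and they were Neu1 (0.36), Mettl3 (0.41) and Il20ra (0.42). All of these were highest in the wounded library of mouse 3, as Krt6b was, with Il20ra at 75.1 CPM there against 32.9 and 39.1 CPM in wounded mice 1 and 2.

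Keratinocyte markers were abundant in both groups, with a summed level of 28570 to 33312 CPM in wounded and 27874 to 34189 CPM in non-wounded libraries, so that the labelled tissue was borne out. Of the 8 markers 2 were higher (Krt14 and Dsc3) and 1 lower (Trp63), and on library totals neither of the 2 was called and 4 markers were lower. Markers of other cells also moved with the comparison, in which 24.0% of all genes were higher and 24.4% lower. All 5 tested fibroblast markers were higher, with a sum of 29.7 to 65.4 CPM in wounded against 2.67 to 7.36 CPM in non-wounded libraries. Of 5 skeletal muscle markers 4 were higher (10.6 to 13.8 against 3.54 to 3.98 CPM), as were all 5 red blood cell markers (97.3 to 165 against 18.9 to 26.1 CPM) and both tested neutrophil markers (4.50 to 8.19 against 1.63 to 2.36 CPM), with Ly6g at 0 in every library. Langerhans cell markers were higher for 3 of 4 (1626 to 1923 against 987 to 1041 CPM). Much of the rise in this sum was Epcam (mean 567 in wounded against 189 CPM in non-wounded libraries), and Cd74 was not called. Of 3 tested melanocyte markers 1 was higher (6.18 to 7.82 against 3.11 to 4.57 CPM). Of 5 dendritic epidermal T cell markers 3 were lower (88.9 to 102 against 110.5 to 141 CPM), 2 of 4 tested macrophage markers were higher and 2 lower (47.1 to 68.6 against 91.4 to 106 CPM), and the 1 tested endothelial marker was not called (2.06 to 2.48 against 1.45 to 2.43 CPM). With library totals alone 2 Langerhans cell markers and 1 macrophage marker were higher, 4 T cell markers were lower, and the melanocyte marker was not called. The part of these cells in the keratin values was not tested.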

How the data were processed

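RNA was sequenced from whole epidermis, separated from dermis in trypsin, after poly-dT capture, per the labels' protocols. The authors deposited 1 table of estimated counts by gene symbol and 1 of TPM, covering all 6 libraries. Salmon, edgeR and build mm10 are named in the submitters' processing notes, while tool versions, annotation and strandedness are not given in the sources used.

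Estimated counts were rounded and library totals taken over all genes. Genes were kept by filterByExpr (16079), scaled by TMM and tested with edgeR 4.0.16 in R 4.3.3 without a term for the mouse, with the SE taken as |log2 fold change| over the square root of F. Alternatives were the mouse as a block, RLE, upper-quartile factors, library totals, other filters, DESeq2 1.42.0, limma 3.58.1 on log2(TPM + 1) or log2(TPM + 0.1) for genes with at least 1 TPM in 3 libraries, and each library left out. Ratios were tested with exact permutations of 3 against 3 libraries.

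Libraries that share a mouse number in the labels come from 1 animal and are paired. The deviations of a mouse's libraries from the group means correlated by 0.15, 0.04 and 0.17 over genes for mice 1, 2 and 3. Between wounded and non-wounded libraries of different mice the correlations ran from -0.145 to 0.0059. Deviations cancel within a group, so these values depend on each other. The labels name no sequencing batch. Coordinates and sequences come from GENCODE M21 (GRCm38). The members and gene lists were chosen with earlier results of these data known. Genes named are the 4 members, the called keratins with at least 10 CPM and the largest change (3 in each direction), the 3 smallest p of each list, and the 3 most alike profiles of each member. Other genes named were chosen after their values were seen.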

Additional observations from a re-analysis of the deposited data

How the results depend on the processing

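Krt16, Krt6a and the sum of Krt6a and Krt6b kept their direction and their call under all 15 alternatives, with log2 fold changes of 3.61 to 4.28, 1.75 to 2.18 and 1.74 to 2.17. Krt17 was no longer called with library totals alone (log2 0.12) or on log2(TPM + 1) and log2(TPM + 0.1) (both 0.10), and lay between 0.39 and 0.51 with any 1 library left out. Krt6b changed sign with the mouse as a replicate block (-0.078), upper-quartile factors (-0.040), library totals (-0.21), log2(TPM + 1) (-0.25) and log2(TPM + 0.1) (-0.43), ranged from -0.81 to 0.45 with any 1 library left out, and was never called. The cause of these changes was not tested. The counts of 3859 higher and 3917 lower genes were 2168 and 6655 with library totals. There were 1789 higher genes on log2(TPM + 1) and 1746 on log2(TPM + 0.1). With any 1 library left out there were 3153 to 3597 higher and 3147 to 3600 lower genes. The mouse as a block gave 4212 higher and 4351 lower genes and changed the call of none of the 4 genes. With library totals, the higher and lower calls were 1 and 6 for the structural keratins (3 and 1 with TMM), 1 and 1 for the follicle keratins (2 and 1), 7 and 3 for the ligands and receptors (11 and 1), and 3 and 3 for the filament partners (8 and 2). With any 1 library left out, 2 to 3 structural keratins were higher and 1 to 3 lower. The TPM ratios and the keratin share kept their direction with estimated counts, within mice (exact sign-flip p = 0.25, the smallest for 3 mice) and with any 1 library left out. Krt6b had at most 151 counts in a library and shares much of its sequence with Krt6a, and the part of either in its values was not tested. With 3 mice and 1 time, no course over time can be given.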

Other observations

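Several keratins that are scarce in epidermis were also higher in the wounded libraries, on few counts. Krt8, a keratin of simple epithelia, stood at 0.980 ± 0.470 CPM in wounded and 0.0919 ± 0.0809 CPM in non-wounded epidermis (log2 3.34, SE 0.77, adjusted p = 0.00501 by edgeR, at most 0.0247 over the alternatives that tested it). Its usual partner Krt18 had too few counts to test. Krt90 stood at 2.74 ± 1.14 CPM in wounded and 0.221 ± 0.210 CPM in non-wounded epidermis (log2 3.59, SE 0.72), and Krt4, a keratin of mucosal epithelia, at 1.94 ± 0.640 CPM in wounded and 0.765 ± 0.164 CPM in non-wounded epidermis (log2 1.34, SE 0.40, with no call with library totals alone). Krt7 and Krt20, the other simple epithelial keratins tested, were not called (log2 -0.63, SE 0.33, and log2 0.08, SE 0.60), though Krt7 was lower with library totals alone (log2 -0.95).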
